A study of Homo sapiens with 9 samples.

Results

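A set of 35 basement membrane and integrin genes was followed in OVISE cells grown in Matrigel. It holds 9 laminin chains, 7 chains of collagens IV and XVIII, 4 genes for nidogens and large proteoglycans, 6 integrin alpha subunits, 6 integrin beta subunits, and DAG1, CD151 and PLEC. Members were taken by gene symbol, from a list drawn up with earlier results of these data known. A probe counted as detected on an array when its detection p was under 0.05, and each member was read on the brightest of its probes detected on 3 arrays or more. Of the 35 genes, 27 had such a probe and were tested among 12698 genes in all, and each of those 27 probes was detected on all 9 arrays. LAMA1, LAMA4, COL4A3, COL4A6 and ITGA1 had probes that were detected on 0 arrays, and the probe of NID1 was detected on 2. LAMA3 and DAG1 had no probe under their symbols in the platform annotation and are not analysed here.

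OVISE is an ovarian clear cell carcinoma line with mutated ARID1A, the gene of a subunit of the SWI/SNF complexes that move nucleosomes. One group received 1 µg/mL doxycycline, which switched on wild-type ARID1A (induced ARID1A cells). Another received 5 µM GSK126, a small-molecule inhibitor of EZH2, the enzyme that methylates lysine 27 of histone H3, and the third received the vehicle DMSO. All 3 groups consisted of the same mutant line in Matrigel, with 3 arrays each, and the replicate number of a sample is that of its labelled batch. Doxycycline was given to the induced ARID1A cells alone, so the drug and the induced gene cannot be told apart. Whether the other groups carried the inducible construct, and whether the induced cells were 1 clone, the labels do not state. Nor do they state that the 3 samples of a group were separate cultures, and p-values therefore describe the spread among these samples, which may be technical.

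Values below are normalised log2 intensities. They compare arrays on the same probe and do not rank genes by amount. Probe ILMN_1734496 of ARID1A read 8.57, 8.34 and 9.09 in induced ARID1A cells, 5.60, 5.48 and 5.61 in GSK126 cells and 5.92, 5.50 and 5.63 in DMSO cells. It was above background only on the 3 arrays of induced cells, at least 3.74-fold higher than in DMSO cells (limma adjusted p = 0.000319 over all probes). ARID1A's brighter probe ILMN_1797341 differed by −0.13 between induced ARID1A and DMSO cells (limma adjusted p = 0.507 over all probes). Of 7 carcinoma markers, 6 had a probe, EPCAM, KRT8, KRT19, PAX8 and NAPSA were detected on all 9 arrays and KRT18 on none, and the summed raw intensity was 198932 to 201276 in induced ARID1A cells, 176551 to 189554 in GSK126 cells and 173344 to 176548 in DMSO cells. Of 6 fibroblast markers COL1A2, COL3A1, LUM and PDGFRB were detected on no array, and the sum was 1657 to 1751 in induced ARID1A cells, 1740 to 1830 in GSK126 cells and 1664 to 1778 in DMSO cells. Of 5 endothelial markers PECAM1, CDH5, KDR and TEK were detected on no array, and the sums were 1419 to 1526 in induced ARID1A, 1291 to 1415 in GSK126 and 1293 to 1430 in DMSO cells. The remaining endothelial marker, VWF, was detected only on the 3 arrays of induced cells, with means of 7.28 in induced ARID1A, 5.69 in GSK126 and 5.76 in DMSO cells, a rise over DMSO of at least 1.43-fold (limma adjusted p = 0.000169). Of 4 leukocyte markers with a probe PTPRC and CD3E were detected on no array, CD14 on 8 and CD68 on all 9, and the sums were 3904 to 4055 in induced ARID1A, 3749 to 4521 in GSK126 and 3897 to 4263 in DMSO cells. The carcinoma marker sum, in which KRT8 rose by 0.46 (limma adjusted p = 0.0295), and VWF moved with the ARID1A comparison, and their part in the results below was not tested. In RNA from whole cultures, fewer cells of a type and less RNA per cell cannot be told apart.

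Basement membranes are thin sheets of matrix under epithelia. Laminins, trimers of an alpha, a beta and a gamma chain, polymerise at the cell surface, collagen IV forms a second covalent network, and nidogens and heparan sulphate proteoglycans link the networks. Cells hold the sheet through integrins, heterodimers of an alpha and a beta subunit, and through dystroglycan. In carcinomas these genes are known for their part in polarity, invasion and survival signalling. Matrigel is itself a laminin-rich basement membrane extract from a mouse tumour, and the arrays measured the RNA of the cells and not the supplied matrix.

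Upstream sequences of 4 loci are shown to give the set's genes a place in the genome, and no result below depends on them: LAMB2, the member that passed the test in the model without batch; LAMB1, the chain that takes the beta position of laminins in place of LAMB2; ITGB6, which passed with the smallest adjusted p when batch was a block; and the interval between the starts of COL4A1 and COL4A2, a pair transcribed in opposite directions. LAMB1, COL4A1 and COL4A2 passed in no comparison and are shown beside the others for contrast. They come from RefSeq, build GRCh38.p14, and end at the base before the annotated start. LAMB2 is at chr3:49133051-49133300 on the minus strand, LAMB1 at chr7:108003162-108003411 on the minus strand, ITGB6 at chr2:160200273-160200522 on the minus strand, and the collagen interval at chr13:110307158-110307283 on the plus strand, read toward COL4A2. Capitals mark GGGCGG (GC box) or CCAAT on either strand.
LAMB2: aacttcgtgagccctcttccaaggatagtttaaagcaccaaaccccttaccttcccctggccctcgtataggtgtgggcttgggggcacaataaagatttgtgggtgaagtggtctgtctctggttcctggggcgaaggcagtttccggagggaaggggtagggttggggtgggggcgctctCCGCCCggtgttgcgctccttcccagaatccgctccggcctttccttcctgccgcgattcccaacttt
LAMB1: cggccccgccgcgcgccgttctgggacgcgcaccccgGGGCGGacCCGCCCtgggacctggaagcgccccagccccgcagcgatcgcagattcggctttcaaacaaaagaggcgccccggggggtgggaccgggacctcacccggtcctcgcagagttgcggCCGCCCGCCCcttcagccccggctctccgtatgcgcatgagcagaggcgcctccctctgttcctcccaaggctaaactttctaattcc
ITGB6: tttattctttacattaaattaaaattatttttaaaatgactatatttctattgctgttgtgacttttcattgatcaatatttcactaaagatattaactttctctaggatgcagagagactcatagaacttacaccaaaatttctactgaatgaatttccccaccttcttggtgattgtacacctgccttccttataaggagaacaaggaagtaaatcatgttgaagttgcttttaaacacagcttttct
COL4A1-COL4A2: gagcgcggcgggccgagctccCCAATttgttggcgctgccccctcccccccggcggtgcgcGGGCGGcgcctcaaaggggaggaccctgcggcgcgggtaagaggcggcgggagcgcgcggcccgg

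Searched on both strands, with overlaps counted, were the GC box and CCAAT, the TATA box (letters TATAAA) and the AP-1 site (letters TGANTCA). LAMB2 held 1 GC box and LAMB1 held 4, of which 2 overlap. ITGB6 held none of the 4 motifs, and the collagen interval held 1 GC box and 1 CCAAT. In 35116 upstream windows of 250 bases, 42.6% held the GC box, 32% CCAAT, 10.7% the TATA box and 6.57% the AP-1 site. In windows cut to the length of the collagen interval the shares were 34.6%, 21.1%, 5.87% and 3.5%. GC content was 58.4% for LAMB2, 70.4% for LAMB1 and 30% for ITGB6, against a median of 58% over the windows of 250 bases. It was 80.2% for the collagen interval, against 60.3% over the windows of its length. Such matches are descriptions of letters and do not show that a factor binds. Other collagen IV pairs lie head to head in the same way, with 418 bases between the starts of COL4A4 and COL4A3 and 379 between those of COL4A6 and COL4A5. COL4A4 and COL4A5 were detected on all 9 arrays, and their partners COL4A3 and COL4A6 on 0.

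The first comparison asked which members differed between induced ARID1A and DMSO cells. LAMB2 rose, and it was the 1 of 27 members that did so in the limma model of the 3 groups at an adjusted p of 0.05, while 0 fell; over all 12698 genes 2.01% rose and 0.835% fell. An unadjusted p below 0.05 was reached by 12 of 27 members and 2433 of all genes. When the batch shared by equally numbered samples was added as a block, 6 members rose (LAMB2, LAMB3, ITGA6, ITGB3, ITGB4 and ITGB6) and 0 fell, against 3.82% and 2.28% of all genes. The median difference of the 27 members was 0.15 (19 above 0 and 8 below) and that of all genes −0.00 (6274 above and 6424 below). Among 11 tested laminins and integrins outside the set the median was −0.13, with 3 above 0 and 8 below. The count of called members without the batch was 0 on leaving out DMSO replicate 1 or any batch, 3 without GSK126 replicate 1 and 2 without GSK126 replicate 3. With the block it was 1 without DMSO replicate 1 or 3, 2 without DMSO replicate 2 or any 1 induced ARID1A array, 3 without GSK126 replicate 3 and 0 without any batch. Calls among all genes were not counted for these omissions. Member medians were 0.19, 0.11 and 0.19 within batches 1, 2 and 3. Of the 27 members, 10 had all 3 induced ARID1A arrays above all 3 DMSO arrays and 3 had all below, against 13.3% and 11.9% of all genes.

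**Figure D1:**
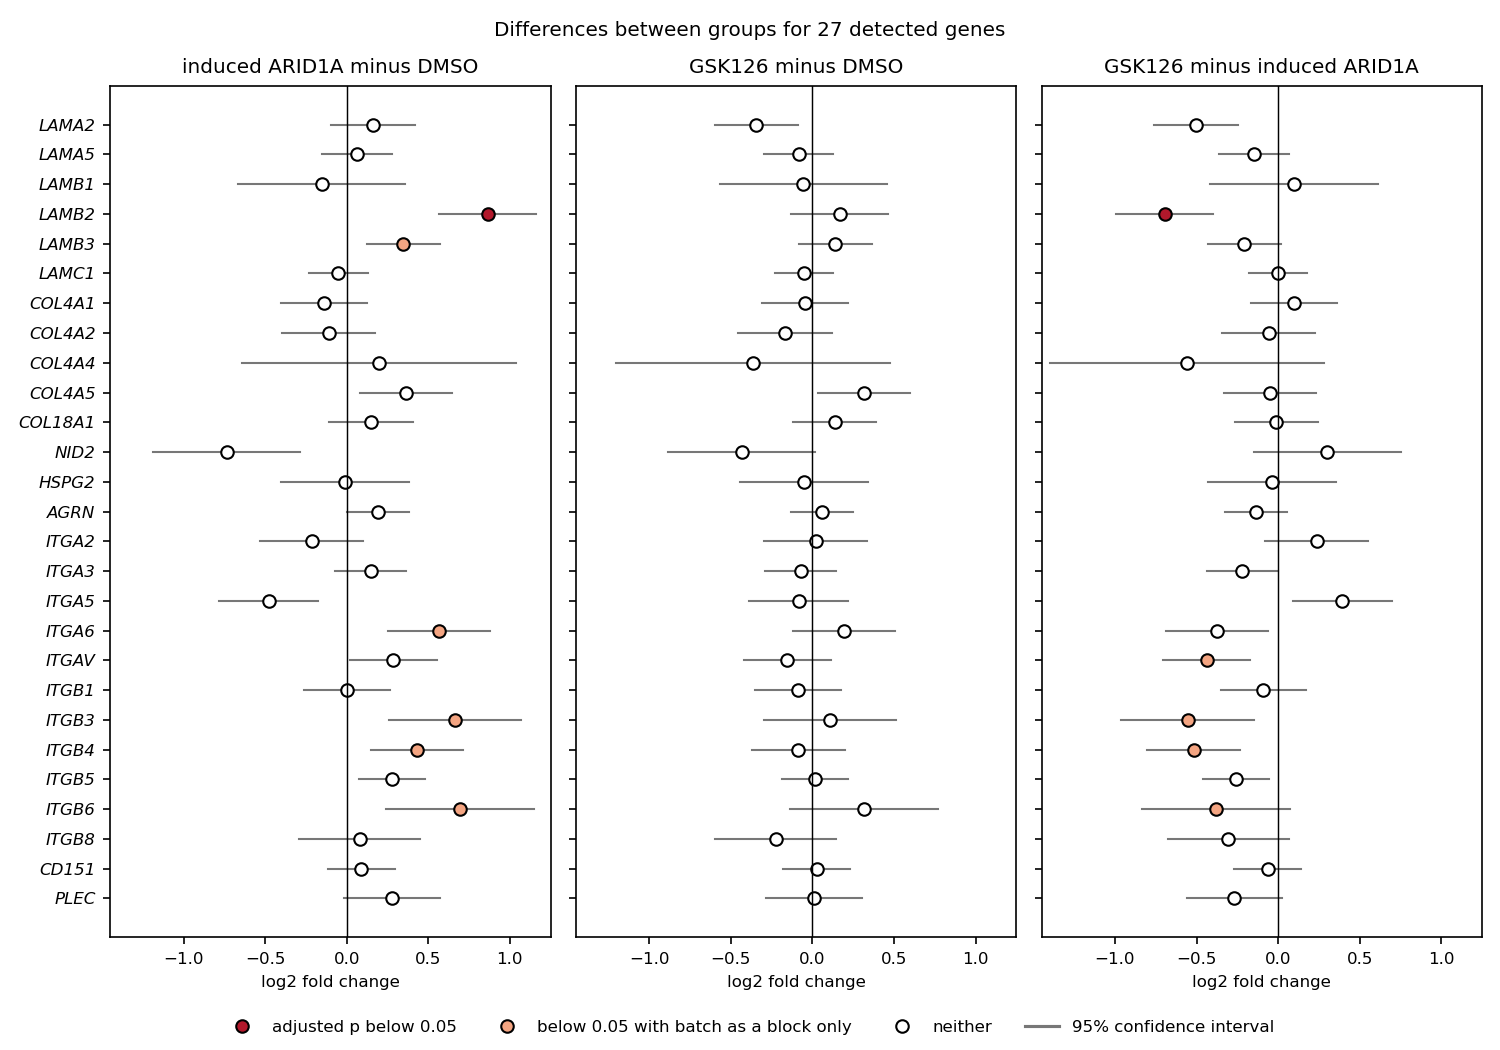
Log2 fold changes of the 27 tested members, with 95% confidence intervals, for induced ARID1A minus DMSO, GSK126 minus DMSO and GSK126 minus induced ARID1A. LAMB2 lies at 0.86 in the first comparison, 0.17 in the second and −0.70 in the third.

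Among the laminins, LAMB2 encodes the beta chain of laminins in the kidney filter and at neuromuscular synapses. It read 11.82, 11.96 and 12.31 in induced ARID1A cells (batches 1, 2 and 3), 11.47, 11.21 and 11.32 in GSK126 cells and 11.07, 11.19 and 11.24 in DMSO cells. All induced arrays were above all DMSO arrays and above all GSK126 arrays, whereas GSK126 and DMSO arrays overlapped. The difference from DMSO was 0.86 (SE 0.13, 95% confidence interval 0.57 to 1.16, limma adjusted p = 0.0137), which is 1.82-fold. Within batches it was 0.75, 0.77 and 1.07. LAMB2 lost the call without DMSO replicate 1 (limma adjusted p = 0.0686) and without any whole batch (0.0947 to 0.129). With batch as a block its adjusted p was 0.0143, and the call was lost without any 1 DMSO array (0.0516 to 0.0815).

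LAMB3, a chain of the laminin that anchors epithelia at hemidesmosomes, read 13.30, 13.17 and 13.38 in induced ARID1A cells, 13.07, 12.96 and 13.20 in GSK126 cells and 12.98, 12.83 and 12.996 in DMSO cells. Induced arrays were above all DMSO arrays, with 0.32, 0.34 and 0.39 within the batches. Its difference of 0.35 (SE 0.10) had a limma adjusted p of 0.102 without the batch and passed with it (0.0344). In the model with the batch this call was lost on leaving out any 1 array (0.0505 to 0.156) or any batch.

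The remaining laminins did not pass in either model. LAMC1, the gamma chain of most laminins, read 16.06, 16.11 and 15.97 in induced ARID1A cells, 16.12, 15.999 and 16.01 in GSK126 cells and 16.06, 16.12 and 16.11 in DMSO cells. These arrays overlapped, with a difference of −0.05. LAMA5, the alpha chain of most adult epithelial laminins, read 15.75, 15.83 and 15.97 in induced ARID1A cells, 15.66, 15.63 and 15.81 in GSK126 cells and 15.70, 15.87 and 15.78 in DMSO cells. Its groups also overlapped (0.06, 95% confidence interval −0.15 to 0.28). Both probes were bright: the mean raw intensity was 68747 for LAMC1 and 56876 for LAMA5, where the brightest probe of an array read 71800 to 73528. LAMC1 reached 71735 on GSK126 replicate 1, so a rise of this gene could not have been measured, and its small differences do not show a lack of change. LAMB1 differed by −0.15 (SE 0.23), with −0.47 in batch 3 against 0.02 and −0.02 in the others. LAMA2, the alpha chain of muscle laminin, differed by 0.16 (SE 0.11) and its second probe by −0.07.

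Collagen chains did not pass in either model. COL4A1, which with COL4A2 makes the collagen IV present in nearly all basement membranes, read 15.58, 15.66 and 15.27 in induced ARID1A cells, 15.67, 15.64 and 15.50 in GSK126 cells and 15.54, 15.68 and 15.72 in DMSO cells. Its difference of −0.14 had a 95% confidence interval of −0.41 to 0.12, and batch 3 alone gave −0.46. COL4A2 read 12.19, 12.28 and 12.19 in induced ARID1A cells, 12.29, 11.89 and 12.31 in GSK126 cells and 12.34, 12.47 and 12.18 in DMSO cells. For this chain, too, the groups overlapped (−0.11, 95% confidence interval −0.39 to 0.18). COL4A5, mutated in Alport syndrome, read 10.79, 10.98 and 11.10 in induced ARID1A cells, 11.04, 10.80 and 10.88 in GSK126 cells and 10.39, 10.62 and 10.77 in DMSO cells. Both treated groups lay above all DMSO arrays, by 0.36 (SE 0.13, limma adjusted p = 0.162) with induced ARID1A and 0.32 (SE 0.13, limma adjusted p = 0.502) with GSK126. Its other probe differed by 0.45 between induced ARID1A and DMSO cells. COL4A4 varied most within a group, at 7.53, 8.84 and 9.02 in GSK126 cells against 8.62, 8.97 and 8.89 in DMSO cells. With induced ARID1A its difference from DMSO was 0.20 (SE 0.37). COL18A1, the precursor of endostatin, differed by 0.15 (SE 0.11).

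Nidogens and proteoglycans gave no call. NID2, a linker between laminin and collagen IV, read 12.39, 12.37 and 11.84 in induced ARID1A cells, 12.35, 12.35 and 12.80 in GSK126 cells and 12.72, 12.82 and 13.26 in DMSO cells. All induced arrays were below all DMSO arrays. The difference of −0.73 (SE 0.20, limma adjusted p = 0.0900) came to −0.33, −0.45 and −1.42 within batches 1, 2 and 3, so batch 3 was the widest. Its adjusted p was 0.0289 on the authors' value table and 0.0295 without background correction. NID1, the other nidogen, was detected on 2 arrays and not tested. AGRN, the proteoglycan agrin, differed by 0.19 (SE 0.08, limma adjusted p = 0.259), with all induced arrays above all DMSO arrays. HSPG2, which encodes perlecan, differed by −0.01 (SE 0.17).

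Of the integrin alpha subunits, ITGA6 pairs with ITGB4 or ITGB1 to bind laminin. It read 9.52, 9.35 and 9.64 in induced ARID1A cells, 8.89, 9.22 and 9.27 in GSK126 cells and 8.89, 8.77 and 9.14 in DMSO cells. Induced arrays were above all others, by 0.63, 0.57 and 0.50 over DMSO within the batches. The difference of 0.57 (SE 0.14, 1.48-fold) had a limma adjusted p of 0.0653, and 0.0314 with batch as a block. A second ITGA6 probe, detected on 5 arrays, gave 0.07, and the mean of both probes gave 0.32 (limma adjusted p = 0.414). With the block the ITGA6 call stayed past 0.05 without GSK126 replicate 1 or 2 and was lost in the other 7 single-array omissions (0.0511 to 0.115).

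ITGAV, the partner of several beta subunits in receptors for RGD-containing ligands, read 13.47, 13.39 and 13.68 in induced ARID1A cells, 12.92, 13.06 and 13.25 in GSK126 cells and 13.09, 13.26 and 13.33 in DMSO cells. Induced arrays were above all others. Its value over DMSO was 0.28 (SE 0.12), which passed in neither model (limma adjusted p of 0.234, or 0.0846 including the block). ITGA5, the fibronectin receptor subunit, read 9.89, 10.02 and 10.02 in induced ARID1A cells, 10.70, 10.20 and 10.22 in GSK126 cells and 10.55, 10.43 and 10.38 in DMSO cells. Here the induced arrays were the lowest, by −0.48 (SE 0.14, limma adjusted p = 0.0978) against DMSO. ITGA2, a collagen-binding subunit, differed by −0.22 (SE 0.14) and ITGA3, a laminin-binding subunit, by 0.15 (SE 0.10).

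The 6 beta subunits had a median difference of 0.35, and 3 of them rose with batch as a block (3.82% of all genes did), 0 without it (2.01%). ITGB6, an epithelial subunit that with ITGAV activates latent TGF-beta, read 9.15, 8.87 and 9.43 in induced ARID1A cells, 8.73, 8.46 and 9.12 in GSK126 cells and 8.43, 8.22 and 8.71 in DMSO cells. In each batch the induced array was the highest and the DMSO array the lowest. Its differences from DMSO were 0.72, 0.65 and 0.73 within the batches and 0.70 overall (SE 0.20, 1.62-fold). The limma adjusted p was 0.105 without the batch and 0.00474 with it, where the SE was 0.07. With the block, ITGB6 stayed past 0.05 on leaving out any 1 of the 9 arrays (0.0113 to 0.0406) and was lost without any batch (0.0718 to 0.0855).

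ITGB3, the ITGAV partner of the vitronectin receptor, read 11.07, 11.14 and 11.54 in induced ARID1A cells, 10.52, 10.47 and 11.08 in GSK126 cells and 10.46, 10.62 and 10.68 in DMSO cells. Induced arrays were above all DMSO arrays, by 0.61, 0.52 and 0.86 within the batches. For ITGB3 the difference was 0.66 (SE 0.18, 1.58-fold), with a limma adjusted p of 0.0892 without the batch and 0.0203 with it. The ITGB3 call with the block was lost without DMSO replicate 1 or 3 or any 1 induced ARID1A array (0.0621 to 0.0834).

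ITGB4, the hemidesmosome subunit that binds laminin with ITGA6, read 9.69, 9.45 and 9.58 in induced ARID1A cells, 9.31, 8.83 and 9.03 in GSK126 cells and 9.21, 9.16 and 9.06 in DMSO cells. Induced arrays were above all others. The difference of 0.43 (SE 0.13, 1.35-fold) had a limma adjusted p of 0.108, and 0.0486 with batch as a block. With the block, the ITGB4 call was lost on leaving out any 1 array (0.0538 to 0.195), and another ITGB4 probe gave 0.24.

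ITGB5, a further ITGAV partner, read 14.08, 14.06 and 14.05 in induced ARID1A cells, 13.76, 13.84 and 13.81 in GSK126 cells and 13.68, 13.95 and 13.73 in DMSO cells. Its induced arrays were above all others, but the difference of 0.28 (SE 0.09) passed in neither model (limma adjusted p = 0.139, and 0.0970 with the block). Its other probes gave 0.30 and 0.15. ITGB1, the partner of most alpha subunits, read 15.43, 15.59 and 15.25 in induced ARID1A cells, 15.19, 15.33 and 15.48 in GSK126 cells and 15.34, 15.40 and 15.53 in DMSO cells. The groups overlapped, with a difference of 0.00 (95% confidence interval −0.26 to 0.26) that was −0.04 under median scaling. This ITGB1 probe was bright, with a mean raw intensity of 43520, and further ITGB1 probes that passed the detection rule gave 0.06 and −0.11. ITGB8 differed by 0.08 (SE 0.17).

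CD151, a tetraspanin bound to laminin-binding integrins, differed by 0.09 (SE 0.09). PLEC, which encodes the plectin that ties hemidesmosomes to keratin filaments, differed by 0.27 (SE 0.13, limma adjusted p = 0.293). Neither passed in either model. Across the set, 9 members had a further probe that passed the detection rule. For induced ARID1A against DMSO, 10 of those 12 probes shared the sign of the gene's brightest probe and 2 had the opposite one. Their smallest limma adjusted p over all probes was 0.167.

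**Figure D2:**
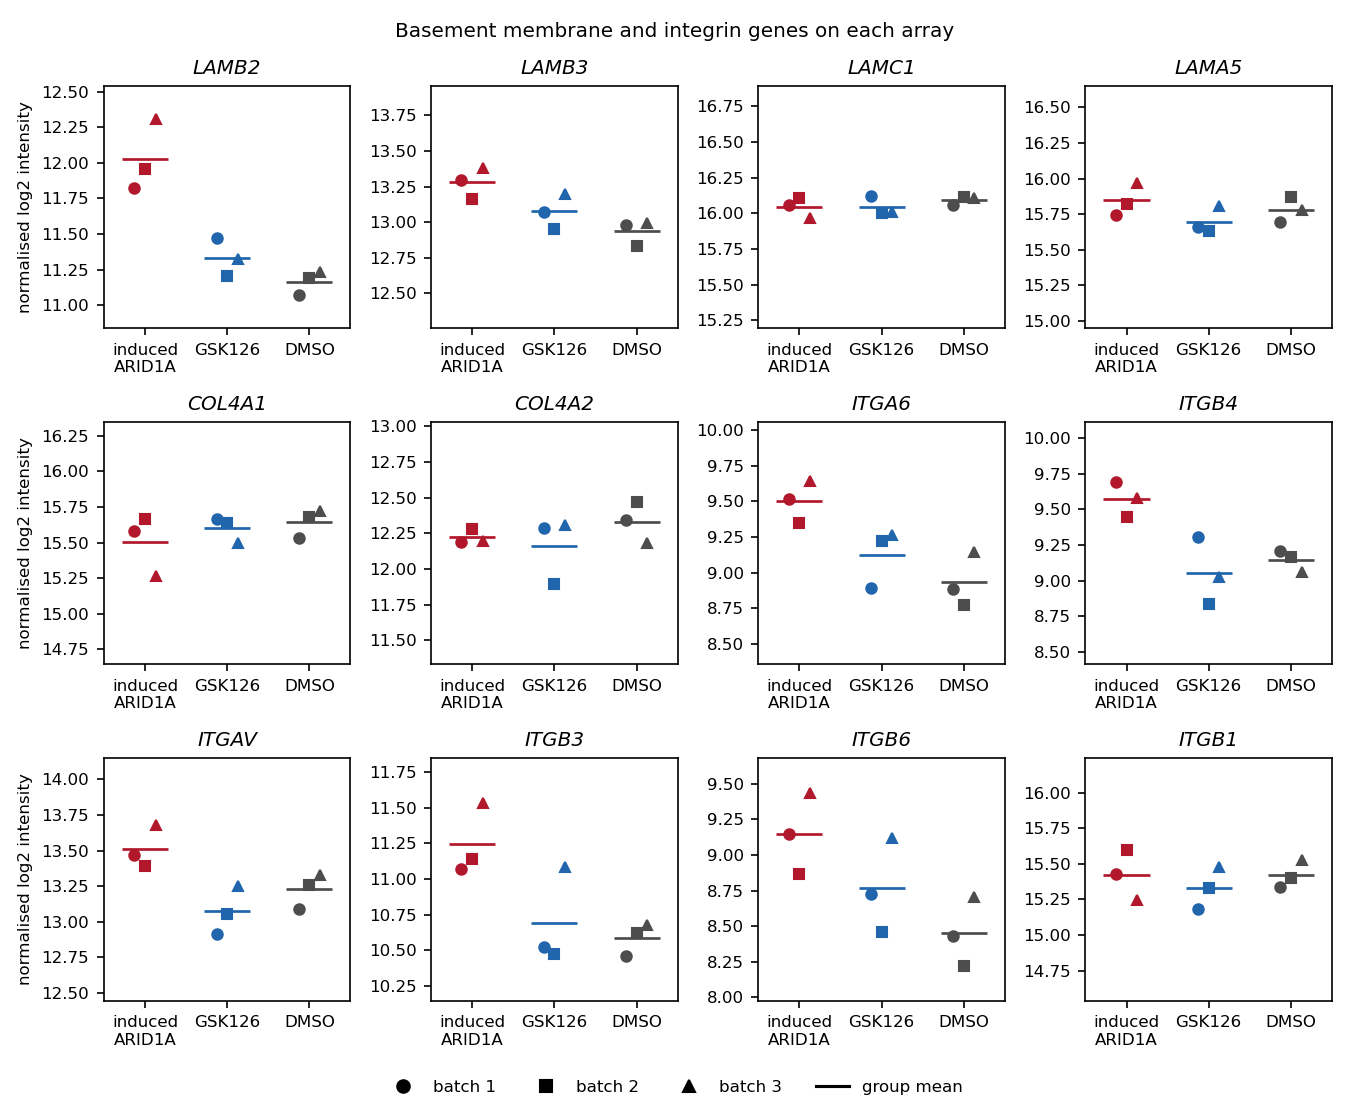
Normalised log2 intensity of named members on each array, with 1 point per array and the mean of each group as a line, in the order induced ARID1A, GSK126 and DMSO. For LAMB2 the induced ARID1A arrays lie at 11.82 to 12.31, above the GSK126 arrays at 11.21 to 11.47 and the DMSO arrays at 11.07 to 11.24.

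**Figure D3:**
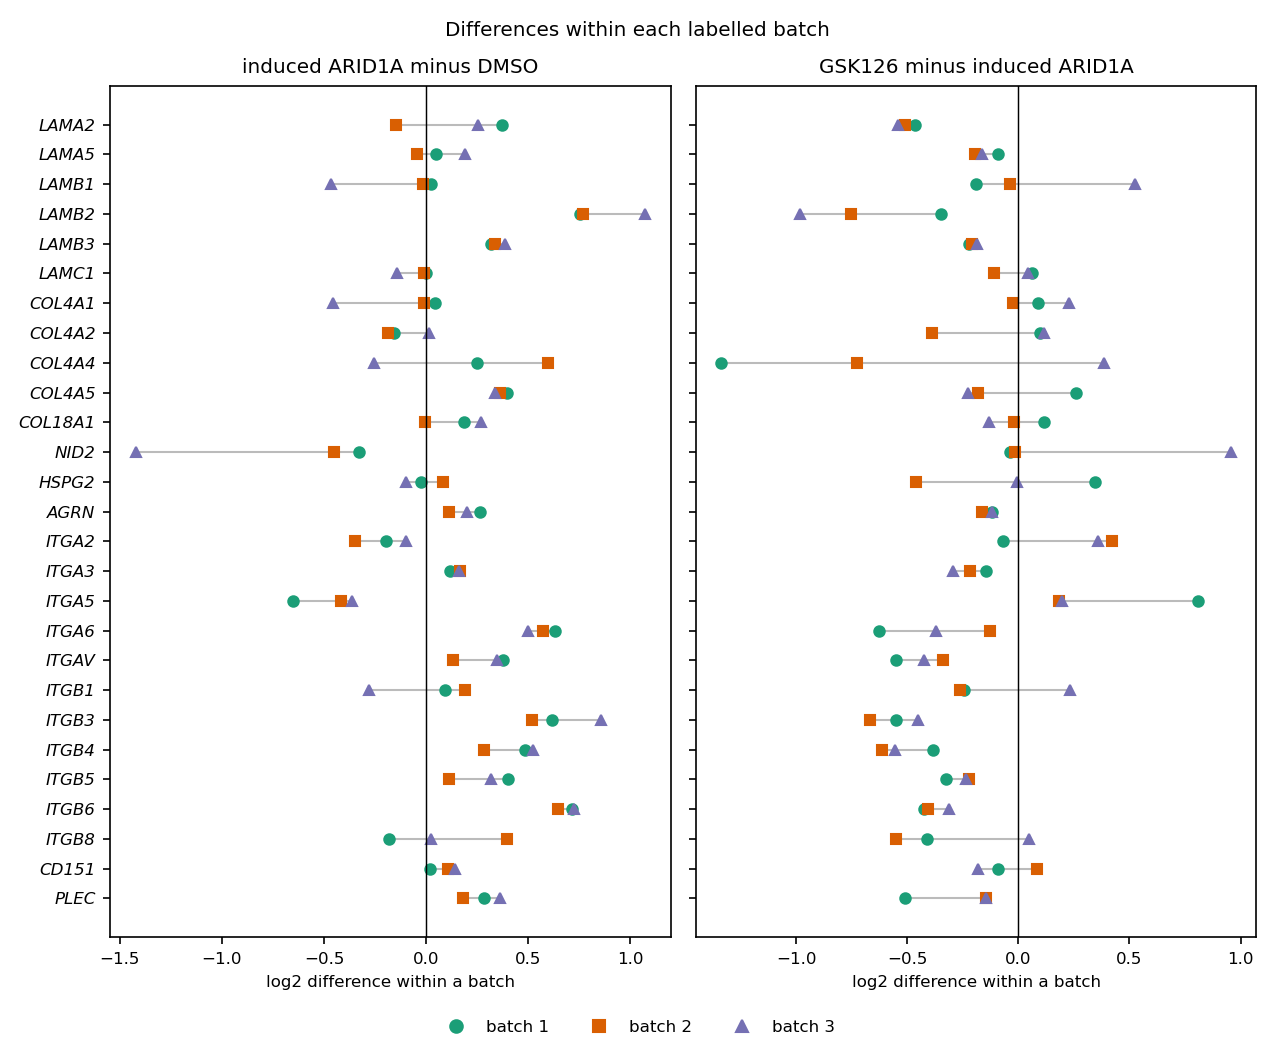
Log2 differences of the 27 tested members within labelled batches 1, 2 and 3, for induced ARID1A minus DMSO and GSK126 minus induced ARID1A. The 3 points of ITGB6 lie at 0.65 to 0.73 in the first panel, while those of NID2 spread over −1.42 to −0.33.

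The second comparison set GSK126 cells against DMSO cells. No member passed: 0 rose and 0 fell in limma with and without the batch, against 0% of all genes in each direction and model. The smallest limma adjusted p was 0.434 among members (0.185 with the block) and 0.145 among all genes. Unadjusted p was below 0.05 for 2 of 27 members and 1185 of 12698 genes. The 2 were LAMA2 and COL4A5. LAMA2 read 7.06, 6.79 and 6.91 in GSK126 cells and 7.15, 7.45 and 7.20 in DMSO cells, a difference of −0.34 (SE 0.11). The lowest detected values of any probe on those GSK126 arrays were 6.77, 6.73 and 6.75, so LAMA2 was near background there. LAMA2 was the 1 member with all GSK126 arrays below all DMSO arrays, and COL4A5 the 1 with all above, against 7.7% and 7.51% of all genes. The second probe of LAMA2 gave −0.12 and that of COL4A5 0.46, and neither passed. On the brightest probes member differences ran between −0.43 (NID2, SE 0.20) and 0.32 (COL4A5), with a median of −0.05. A second ITGA3 probe gave 0.38, against −0.07 on the brightest one, and further ITGB1 probes gave −0.06 and −0.47. None of these passed. For LAMB2 the difference was 0.17 (SE 0.13, 95% confidence interval −0.13 to 0.47), and for ITGB6 it was 0.31 (SE 0.20, −0.14 to 0.77). ITGB1 gave −0.09, and LAMC1, near the top of the range, −0.05. This comparison shares its DMSO arrays with the first, so the values of both are not independent.

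The third comparison set GSK126 cells against induced ARID1A cells. Its arrays are those of the first 2 comparisons, so its values are not independent of theirs. LAMB2 was lower in GSK126 than in induced ARID1A cells, by −0.70 (SE 0.13, limma adjusted p = 0.0301). It was the 1 of 27 members called lower and 0 were called higher, against 1.54% and 0.953% of all genes. Against DMSO cells, LAMB2 in GSK126 cells differed by 0.17 and did not pass. Within batches LAMB2 differed by −0.35, −0.75 and −0.98. Its call was lost in a fit of only those 2 groups (limma adjusted p = 0.0782), without DMSO replicate 3 (0.0504), induced ARID1A replicate 2 (0.0646) or 3 (0.0771) or any 1 GSK126 array (0.0615 to 0.0886), and without any batch. With batch as a block 5 members were lower in GSK126 than in induced ARID1A cells (LAMB2, ITGAV, ITGB3, ITGB4 and ITGB6). None was higher, against 2.36% of all genes lower and 1.81% higher. LAMB2 then stayed past 0.05 without induced ARID1A replicate 1 (limma adjusted p = 0.0481) or GSK126 replicate 1 (0.0337) and lost the call in the other 7 single-array omissions (0.0562 to 0.115) and without any batch (0.0744 to 0.177).

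Integrin subunits made up the other calls with the block. The value of ITGAV was −0.44 (SE 0.12, with a limma adjusted p of 0.0978 that was 0.0318 including the block), with GSK126 arrays below all induced ARID1A arrays. ITGB4 gave −0.52 (SE 0.13, 0.0736 and 0.0339), also without overlap. ITGB3 gave −0.56 (SE 0.18, 0.158 and 0.0396) and ITGB6 −0.38 (SE 0.20, 0.395 and 0.0350), and in both the groups overlapped. With the block, the calls of ITGAV (0.0521 to 0.118) and ITGB6 (0.0623 to 0.121) were lost without any 1 array. ITGB4 stayed past 0.05 only without DMSO replicate 2 (0.0434) and ITGB3 only without DMSO replicate 3 (0.0371), and all 4 were lost without any batch. ITGA6 differed by −0.38 (SE 0.14) and LAMB3 by −0.21 (SE 0.10), and neither passed.

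LAMA2, near background on the GSK126 arrays, read 7.06, 6.79 and 6.91 in GSK126 cells and 7.52, 7.30 and 7.45 in induced ARID1A cells. They were apart by −0.50 (SE 0.11, limma adjusted p = 0.0557), and the GSK126 arrays were below all induced ARID1A arrays. A second LAMA2 probe, detected on 4 arrays, gave −0.06 (limma adjusted p = 0.937 over all probes). ITGA5 was the 1 member with all GSK126 arrays above all induced ARID1A arrays (0.39, SE 0.14, limma adjusted p = 0.180), and 8 members had all below, against 9.67% and 11.4% of all genes. The median over the 27 members was −0.15, and −0.34 over the 6 beta subunits. The collagen chains COL4A1 (0.10), COL4A2 (−0.06) and COL18A1 (−0.01) and the laminin chains LAMA5 (−0.15) and LAMC1 (−0.00, near the top of the range) did not pass.

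Genes around the set were read from 7 further lists of 140 genes, of which 101 were tested. For induced ARID1A against DMSO 8 rose and 0 fell, against 2.01% and 0.835% of all genes, and their median was 0.06. With batch as a block 14 rose and 4 fell, against 3.82% and 2.28%. For GSK126 against DMSO 0 rose and 0 fell in limma in either model, as did 0% of all genes, and 8 of 101 (7.92%) had an unadjusted p below 0.05, against 9.33% of all genes. For GSK126 against induced ARID1A 1 rose and 6 fell, against 0.953% and 1.54% of all genes, and with the block 3 rose and 11 fell, against 1.81% and 2.36%. The 8 rises became 2 without DMSO replicate 1 or 3, 5 without induced ARID1A replicate 1, 3 without induced ARID1A replicate 3 and 0 or 1 without a batch. How many of all genes passed in these omissions was not counted. TINAGL1 kept its call without any 1 array and lost it without any batch (limma adjusted p = 0.0528 to 0.0571).

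Other basement membrane proteins and integrin ligands held 4 of the 8 rises among 14 tested genes. TINAGL1, a matricellular protein of basement membranes, read 11.45, 11.28 and 11.83 in induced ARID1A cells, 9.64, 10.002 and 10.14 in GSK126 cells and 9.41, 9.93 and 9.93 in DMSO cells. It rose by 1.76 (SE 0.20, limma adjusted p = 0.00348) against DMSO and differed by −1.59 between GSK126 and induced ARID1A cells (0.00489). FRAS1 and FREM1, matrix proteins of one complex under embryonic epithelia, rose by 1.02 (SE 0.19, limma adjusted p = 0.0272) and 1.47 (SE 0.25, 0.0195). FREM2, tested in the same list, differed by 0.08 (SE 0.09, limma adjusted p = 0.673) and did not pass. FREM1 was detected on 1 of 3 DMSO arrays, which leaves it at least 2.41-fold higher. THBS1, which encodes thrombospondin, rose by 0.96 (SE 0.19, limma adjusted p = 0.0363) and fell in GSK126 against induced ARID1A cells (−1.14, 0.0212). FREM1 lost its call without DMSO replicate 1 or 2 or induced ARID1A replicate 3 (0.0587 to 0.0836), FRAS1 without DMSO replicate 1 or 3 or induced ARID1A replicate 2 or 3 (0.0764 to 0.107). THBS1 lost it without 6 of the 9 arrays (0.0532 to 0.0984), DMSO replicate 2, induced ARID1A replicate 3 and GSK126 replicate 1 being the exceptions. Its call between GSK126 and induced ARID1A cells was lost without induced ARID1A replicate 1 or 2 or any 1 GSK126 array (0.0515 to 0.0717). With the block 5 genes of this list rose and 2 fell, against 3.82% and 2.28% of all genes. The falls were CCN2 (−0.95, limma adjusted p = 0.211 without the block and 0.00770 with it) and TGFBI (−0.51, 0.0678 and 0.0183). A second CCN2 probe gave −0.57 (limma adjusted p = 0.413 over all probes, without the block).

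In 16 tested matrix proteases and inhibitors BMP1, the procollagen C-proteinase, rose with induced ARID1A by 0.62 (SE 0.09, limma adjusted p = 0.0130) and was lower in GSK126 than in induced ARID1A cells by −0.55 (0.0213). MMP7, matrilysin, was higher in GSK126 than in induced ARID1A cells by 0.67 (limma adjusted p = 0.0488). Of 25 tested cytoplasmic adhesion proteins TNS1, a tensin, rose by 0.93 (SE 0.17, limma adjusted p = 0.0240). It was detected on 2 of 3 DMSO arrays and was at least 1.90-fold higher. TNS1 (−0.80, 0.0400) and the actin crosslinker ACTN1 (−0.46, 0.0417) fell in GSK126 against induced ARID1A cells. Of 13 tested other receptors and tetraspanins CD82 (0.96, SE 0.16, limma adjusted p = 0.0200) and CD9 (0.51, SE 0.09, 0.0205) rose. Their second probes gave 0.51 and −0.13 without passing. CD82 fell in GSK126 against induced ARID1A cells (−1.16, limma adjusted p = 0.00915). Against DMSO, BMP1 lost its call without DMSO replicate 3 (0.0518), TNS1 without DMSO or induced ARID1A replicate 1 or 3 (0.0601 to 0.100), CD82 without any 1 DMSO array or induced ARID1A replicate 3 (0.0548 to 0.0818), and CD9 without those or induced ARID1A replicate 1 (0.0513 to 0.0927). Against induced ARID1A cells, CD82 kept its call without any 1 array, BMP1 lost it without induced ARID1A replicate 3 or any 1 GSK126 array (0.0525 to 0.0686), ACTN1 lost it without any 1 (0.0615 to 0.126), and MMP7 kept it only without DMSO replicate 1 and TNS1 only without GSK126 replicate 3.

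The 3 other lists had 0 calls for induced ARID1A against DMSO in limma without the batch, with 2 of 11, 3 of 12 and 3 of 10 unadjusted p-values below 0.05, against 19.2% of all genes. Among 11 laminins and integrins outside the set, LAMC3, a gamma chain, fell with the block (−0.69, limma adjusted p = 0.0998 without it and 0.0158 with it), and ITGA4 differed by −0.42 (0.212). Among 12 genes of assembly and collagen processing, P3H2, a prolyl hydroxylase of collagen IV, rose with the block (0.41, limma adjusted p = 0.162 and 0.0453), and P4HA2 differed by 0.30 (0.102). Among 10 genes of the dystroglycan complex and its glycosylation, SGCE, a sarcoglycan, rose with the block (0.44, limma adjusted p = 0.0854 and 0.0369), and POMGNT1 differed by −0.36 (0.108). With the block SGCE lost its call without any 1 array or batch (0.0523 to 0.218). P3H2 kept it only without GSK126 replicate 2 or 3 (0.0484 and 0.0483) and otherwise lost it (0.0655 to 0.216). LAMC3 kept it without induced ARID1A replicate 1 or any 1 GSK126 array (0.0201 to 0.0325) and lost it without any 1 DMSO array, induced ARID1A replicate 2 or 3, or any batch (0.0518 to 0.127).

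**Figure D4:**
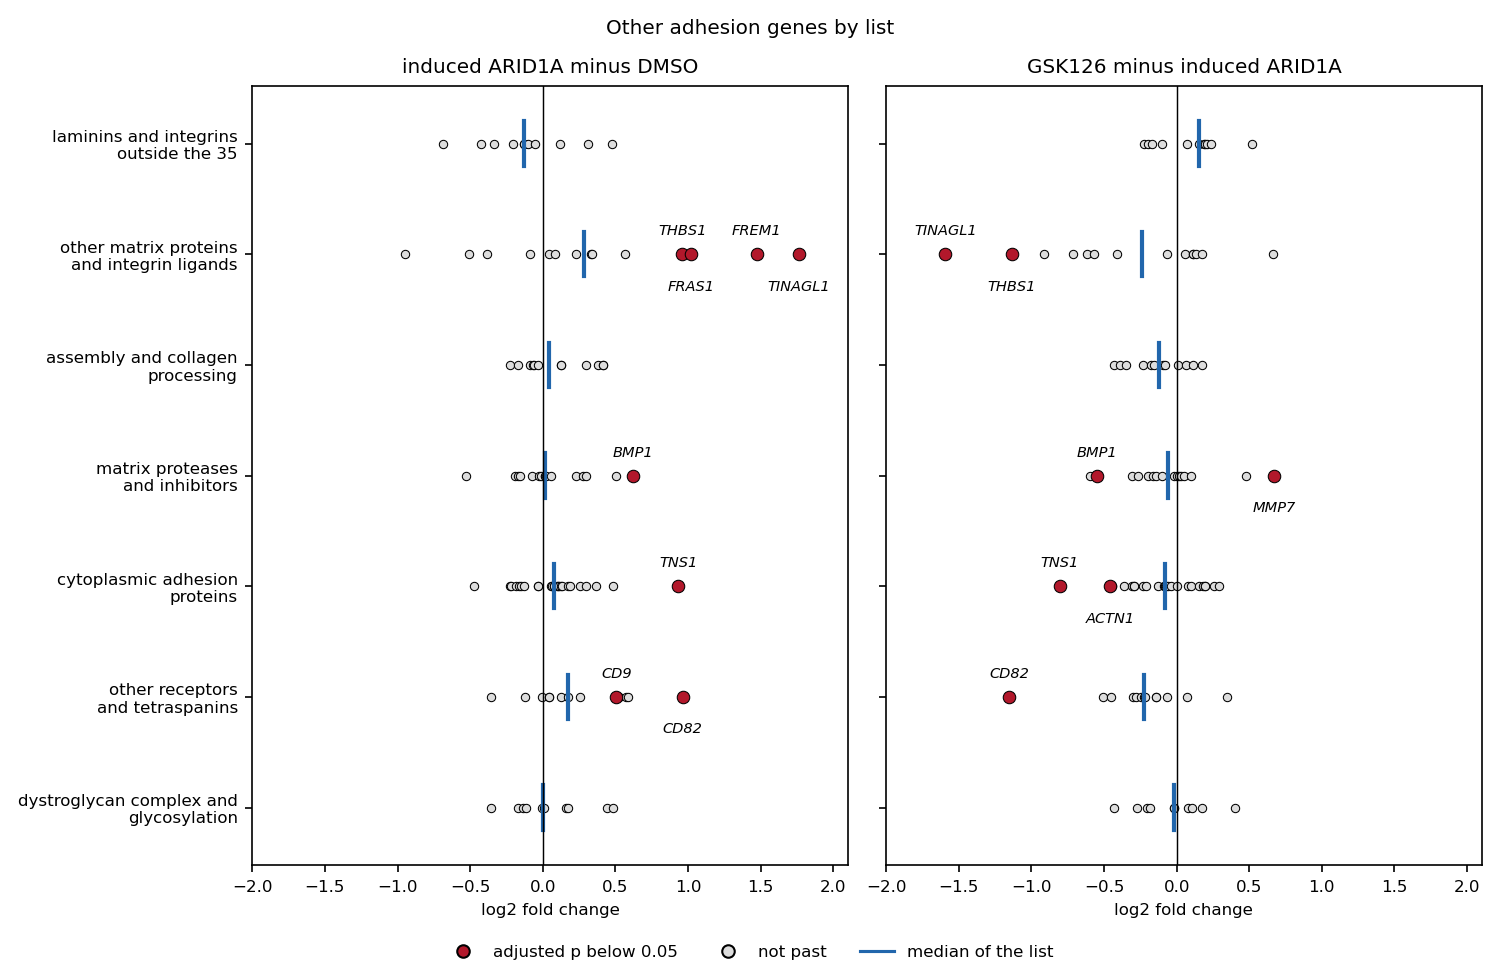
Log2 fold changes of the 101 tested genes of the 7 further lists, for induced ARID1A minus DMSO and GSK126 minus induced ARID1A, with 1 point per gene and a bar at the median of each list. Named points passed an adjusted p of 0.05 in limma without the batch, from CD9 at 0.51 to TINAGL1 at 1.76 in the first panel.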

How the data were processed

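RNA of 9 OVISE samples was hybridised to an Illumina array of 47323 probes. The deposited table of non-normalised values holds 1 linear intensity per probe and array, exported with GenomeStudio per the submitters' processing notes, and beside it a detection p-value that the authors' software made. The authors also deposited a value table of linear intensities, all of whose columns share 1 set of quantiles, and it served as an alternative. The genome build of the array is not named in the labels.

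Background correction (normexp with control values inferred from the detection p-values, offset 16), quantile normalisation and log2 were done with neqc of limma 3.58.1 (R 4.3.3). Probes detected on at least 3 arrays stayed in (23014, or 48.63%), 1 probe per gene, and symbols were updated through RefSeq. The model had 3 group means (6 residual degrees of freedom, 4 with batch as a block), and two-sided p-values were adjusted by Benjamini and Hochberg's method across 12698 genes, with a threshold of 0.05. The fit without the block was tried on simulated data with independent noise and no batch effect, for induced ARID1A against DMSO alone. The model with the block was not tried in this way. Equal replicate numbers mark a labelled batch and so pair the samples. Residuals around the group means had correlations of 0.102 to 0.326 for 9 pairs of arrays within a batch and of −0.227 to 0.042 for 18 pairs across batches. Centring on group means pushes the correlations across batches toward negative values when those within a batch are positive. These ranges are therefore not independent. Per array 21317 to 22517 probes were detected, with a median raw intensity of 317 to 349, and the number of arrays limits the precision.

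Members and lists were chosen with earlier results of these data known. Members past the threshold in either model, and 5 broadly expressed chains (ITGB1, LAMC1, LAMA5, COL4A1 and COL4A2), got every array value. Each further list gave up to 3 called genes per direction and comparison, or the 2 with the smallest p. THBS1, named for its fall in GSK126 against induced ARID1A cells, is also given against DMSO. CCN2 and TGFBI are given for their falls with the block. Some other members were given array values after theirs had been seen. Background correction, offset, scaling, filter, probe rule, the authors' values, batch and each array or batch left out were varied.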

Additional observations from a re-analysis of the deposited data

How the results depend on the processing

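For induced ARID1A against DMSO, the 1 member called became 6 with the replicate block, 5 without background correction (4 higher, 1 lower), 6 on the authors' value table (4 higher, 2 lower) and 2 with a detection p under 0.01. Calls among all 12698 genes likewise went from 361 (2.84%) to 774 (6.1%) with the block and 632 (4.98%) without background correction. On the authors' value table they were 644 (5.07%), and with that detection limit 461 of 11037 (4.18%). The member count stayed 1 with a larger normexp offset, median scaling, no filter, detection on all 9 arrays, probe means and only the groups compared. In that order, calls among all genes were then 3.34%, 2.72%, 1.27%, 3.28%, 3.03% and 1.83%. Leaving out 1 array gave 0 to 3 members, a batch 0, and with the block 1 to 6 and 0. Calls among all genes were not counted for any omission, so a general loss of calls with fewer arrays was not set beside these counts. For GSK126 against induced ARID1A, the 1 member became 5 with the replicate block and 0 with only the groups compared. It became 3 without background correction, 3 on the authors' value table and 2 with detection on all 9 arrays. In that order, calls among all genes were 530 (4.17%), 168 (1.32%), 513 (4.04%), 513 (4.04%) and 277 of 11125 (2.49%), against 317 (2.5%). Without 1 array the count was 0 to 1, and 0 to 2 with the block. For GSK126 against DMSO it was 0 under every setting run. Calls among all genes in that comparison were 65 (0.512%) with the replicate block joined to the authors' value table. They were 0 under each other setting that left nothing out. The 8 other adhesion genes called for induced ARID1A against DMSO became 18 with the replicate block, 16 without background correction and 16 on the authors' value table. They numbered 2 to 11 without 1 array, 0 to 1 without a batch, and 2 to 16 and 1 to 3 with the block. Combinations added after seeing the data joined the replicate block to another choice. On the authors' value table they gave 11 members for induced ARID1A against DMSO, 6 for GSK126 against induced ARID1A and 30 other genes. Median scaling gave 5, 2 and 18, no filter 3, 1 and 14, and probe means 4, 4 and 17. Calls among all genes in these comparisons were 1453 (11.4%) and 1086 (8.55%) on the authors' value table. They were 693 (5.46%) and 539 (4.24%) with median scaling, and 793 (6.25%) and 569 (4.48%) with probe means. With no filter they were 451 (2.25%) and 318 (1.59%) of 20046. The cause of these shifts was not tested.

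LAMB2 kept its call for induced ARID1A against DMSO under all 10 planned settings other than omissions (limma adjusted p 0.00152 to 0.0332, difference 0.80 to 0.87). No called value changed sign; among members' values past no threshold, signs changed 86 times over the planned settings and 89 times over the added ones. A setting that leaves 2 arrays in a group pools the spread of all groups. Scaling moved the median of all genes by under 0.1. Every setting aligned the quantiles or the medians of the arrays, so this was largely fixed in advance and is no test of the scaling. The brightest probes lie near the top of the scanner range, and dim ones near background. With 3 arrays a group, small differences could be missed. The intervals given were not adjusted for the number of genes tested and do not mark the smallest difference that could be called. For induced ARID1A against DMSO without the batch, the interval of NID2 was −1.19 to −0.28, yet its limma adjusted p was 0.0900. That of ITGB6 was 0.24 to 1.15, with a limma adjusted p of 0.105.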
